A study of Mus musculus with 6 samples.

Results

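The genes described here are 35 genes of antigen presentation and of the interferon response, measured by RNAseq in liver tumors. They were chosen by name, with earlier results of these data known. The 3 lists were 10 genes of MHC class I presentation (MHC I), 7 genes of MHC class II presentation (MHC II) and 18 interferon-induced genes. All 35 were found among the 35527 gene symbols of the series. The tumors were 6 in number, 3 from each of 2 male C57BL/6 CMRtdT mice, and all belong to 1 condition. These mice carry 1 *Ctnnb1* allele whose exon 3 is removed by Cre, which leaves an active β-catenin, together with the *MUP-uPA* transgene that injures hepatocytes and the *R26* tdTomato reporter. Every mouse was fed a high-fat diet (HFD) from 6 weeks of age and received AAV8-TBG-Cre, whose promoter drives Cre in hepatocytes, at 8 weeks, and 6.5 months after that its tumors were collected. No untreated, wild-type or non-tumor liver is analysed here, so levels are described among tumors, and the gene totals do not show whether exon 3 is missing. A tumor is bulk tissue, in which fewer cells of a type and less RNA per cell cannot be told apart.

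Nearly every nucleated cell displays peptides from its own proteins on MHC I molecules, which consist of a heavy chain and β2-microglobulin. The peptides are cut by the proteasome, carried into the endoplasmic reticulum by the TAP transporter and loaded with the help of tapasin. MHC II molecules are made mainly by macrophages, dendritic cells and B cells and show peptides from ingested material to helper T cells. Interferons act on receptors of the cell surface and, through JAK kinases and STAT factors, switch on a large group of antiviral and immune genes, the MHC I pathway among them. In the liver, hepatocytes carry little surface MHC I at rest, and the resident macrophages, the Kupffer cells, are a main source of MHC II.

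The values are TPM, a share of all transcripts corrected for transcript length and scaled to a fixed sum in each tumor, added over the transcripts of a gene. The estimated counts came to 19130532 to 27681766 per tumor. Tumor 1 of mouse 1 stood apart from the others before any of these genes was considered. The summed level of the 8 hepatocyte markers was 1221 TPM here against 20951 to 36279 TPM in the other 5, and each of the 8, led by *Alb*, *Apoa1* and *Rbp4*, had its lowest value there. TPM sums to one total in every tumor, so a smaller share of abundant mRNAs leaves a larger share to the other genes. Over the 12512 genes whose mean reached 1 TPM, the median log2 ratio of this tumor to the median of the other 5 was 0.98. On counts scaled by TMM, which corrects for the makeup of a library, it was −0.10. Levels in this tumor are therefore read against both scales. Each result is therefore given with all 6 tumors and with the 5 others alone. The closest pair, tumors 2 and 3 of mouse 1, still differed by more than the sampling noise of their counts. The chi-square of their counts per degree of freedom was 7.75, against 73.8 to 1299 for the other pairs within a mouse. A difference above sampling noise does not show that they are independent samples. Both were kept as labeled, and the means, SDs and tests count both.

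Tumor 1 of mouse 1 had the lowest level of most genes of antigen presentation and of the interferon response. It was the lowest of the 6 tumors for 30 of the 34 genes whose mean reached 1 TPM, among them 10 of 10 MHC I, 5 of 6 MHC II and 15 of 18 interferon-induced genes. Of all 12512 genes at that level, 22.2% were lowest in this tumor. It was the highest tumor for 0 of the 34, beside 62.6% of all genes. *Ciita*, the transcriptional co-activator of MHC II genes, had a mean of 0.566 TPM and was not counted. The exceptions were *H2-Eb1*, *Irf9*, *Ifit2* and *Gbp7*. On the TMM scale all 35 genes were lowest in this tumor, but the share of all genes lowest there was not counted on that scale. The constitutive proteasome genes and the endothelial markers were also lowest there on it. The log2 ratio of this tumor to the median of the other 5 had a median of −3.08 over the MHC I genes, −2.73 over 6 MHC II genes and −2.41 over the interferon-induced genes, and on the TMM scale −4.13, −3.71 and −3.35. In TPM the same value was −4.91 over the hepatocyte markers and −2.93 over the 10 macrophage markers whose mean reached 1 TPM. It was −2.10 over 8 endothelial markers and −1.90 over 3 markers of all leukocytes, and *Nkg7*, the single T and NK cell marker at that mean, had −3.20. The endothelial markers ran from −4.60 for *Stab2* to −0.39 for *Pecam1*, −0.22 for *Egfl7* and −0.04 for *Cdh5*, and *Coro1a* of the leukocyte markers had −0.23. The median was −0.70 over 6 stellate cell and fibroblast markers and −0.48 over 2 dendritic cell markers, and 0 of 6 and 0 of 2 were lowest there. On the TMM scale these medians were −1.65 for the stellate cell and fibroblast markers and −1.47 for the dendritic cell markers, beside −0.10 for all genes. *Dcn*, *Col1a1*, *Col3a1*, *Reln* and *Batf3* were then lowest in this tumor, and *Lum*, *Pdgfrb* and *Itgax* were not. RNA of several cell types was thus low together with the genes described here, and which cell types were spared depends on the scale. The part of these cells in the low levels was not tested.

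**Figure D1:**
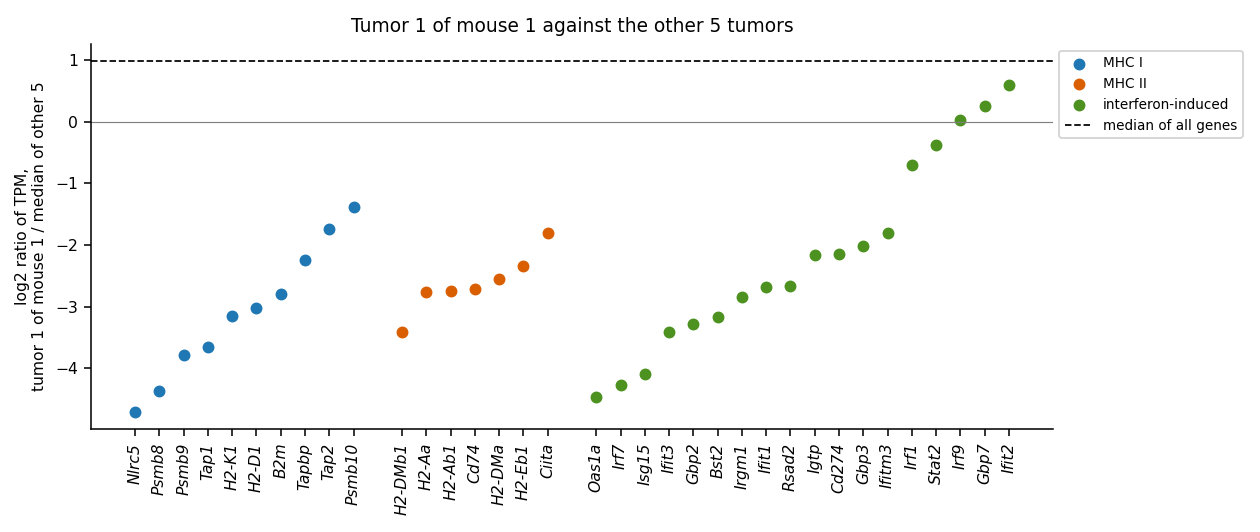
The log2 ratio of TPM in tumor 1 of mouse 1 to the median of the other 5 tumors, with 1 point for each of the 35 genes, colored by list. The dashed line is the median of all genes at 0.98, and all points lie below it.

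The range among the 6 tumors came mostly from this tumor for MHC I and interferon-induced genes, but not for MHC II genes. Of 32 genes whose mean reached 5 TPM, 25 had at least a 4-fold range between their highest and lowest tumor, beside 48.7% of all genes at that level. Without tumor 1 of mouse 1 the number was 6 of 32, beside 6.08% of all genes, and these 6 were *H2-Aa*, *H2-Ab1*, *H2-Eb1*, *H2-DMa*, *H2-DMb1* and *Cd74*. Over the 5 tumors the median range was 1.69-fold for MHC I genes, 5.99-fold for MHC II genes and 2.08-fold for interferon-induced genes, beside 2.00-fold for all genes whose mean reached 1 TPM. In summed TPM, MHC I ranged from 4651 to 8715 over these 5 tumors, MHC II from 153 to 967 and the interferon-induced genes from 903 to 1611.

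**Figure D2:**
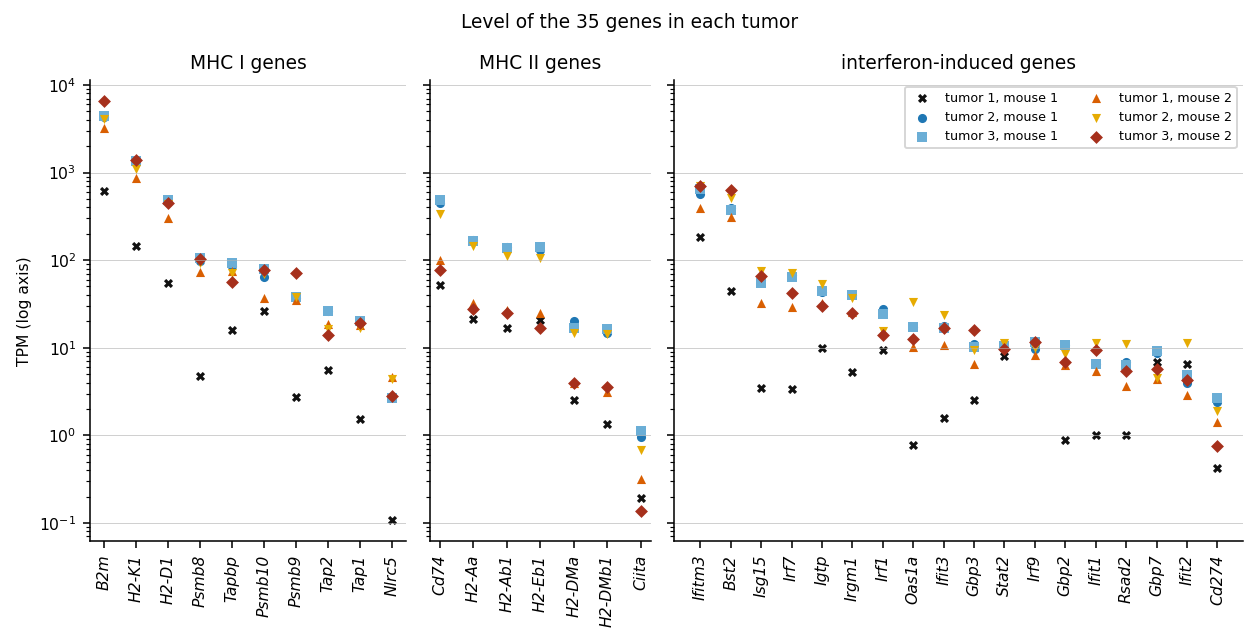
TPM on a log axis of each gene in each tumor, in 3 panels for MHC I, MHC II and interferon-induced genes, ordered by the mean of the 5 tumors without tumor 1 of mouse 1. The black crosses of that tumor lie apart from the rest for most MHC I genes, while the MHC II genes form a higher and a lower set of 3 tumors.

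The heavy chains and their partner were the most abundant of the MHC I genes. Most of the pathway lies in the MHC region of chromosome 17, which on GRCm38 holds 12 of the 35 genes between the start of *Tapbp* at 33919478 and the end of *H2-D1* at 35267497. *H2-K1*, which encodes the K heavy chain and lies from 33996012 to 34000619, had 145, 1282 and 1358 TPM in mouse 1 and 872, 1088 and 1403 TPM in mouse 2, each in the order of tumors 1, 2 and 3. *H2-D1*, the D heavy chain gene, stood at 55.5, 464 and 489.6 TPM in mouse 1 and at 303, 441 and 448 TPM in mouse 2. *B2m*, which encodes β2-microglobulin and lies on chromosome 2 from 122147687 to 122153082, reached 616, 4263 and 4391 TPM in mouse 1 and 3213, 4076 and 6520.0 TPM in mouse 2. In all 3 genes tumor 1 of mouse 1 lay far below the other 5 tumors, which ranged over 1.61-fold for both heavy chains and 2.03-fold for *B2m*. The mean was 1201 ± 219.6 TPM for *H2-K1*, 429 ± 72.9 TPM for *H2-D1* and 4493 ± 1223 TPM for *B2m* (SD, n = 5 tumors), and 1025 ± 474, 367 ± 166 and 3847 ± 1924 TPM (SD, n = 6) with that tumor. The proportions between them moved little. *H2-K1* was 2.47 to 3.13 times *H2-D1* over the 6 tumors, and *B2m* was 2.38 to 3.52 times the sum of both. *H2-K1*, *H2-D1* and the *H2-Q* and *H2-T* genes are close in sequence, and their shares of the reads are uncertain.

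The promoters of the 2 heavy chain genes are shown because they carry the short elements through which MHC I genes are known to be switched on together. Windows from 250 bases before to 50 bases after the annotated start, from RefSeq on GRCm38.p6, were at hand for 30 of the 35 genes. A set of 4 short motifs was searched on both strands: a κB site of class I promoters (GGGGATTCC), the Y box that is bound by NF-Y (CTGATTGG), the core of the interferon-stimulated response element or ISRE (GAAANNGAAA), and the gamma-activated site or GAS (TTCNNNGAA). Capitals mark the κB site and the Y box, the latter as its complement CCAATCAG. The *H2-K1* window is chr17:34000298-34000597 on the minus strand, and that of *H2-D1* is chr17:35262844-35263143 on the plus strand.
H2-K1: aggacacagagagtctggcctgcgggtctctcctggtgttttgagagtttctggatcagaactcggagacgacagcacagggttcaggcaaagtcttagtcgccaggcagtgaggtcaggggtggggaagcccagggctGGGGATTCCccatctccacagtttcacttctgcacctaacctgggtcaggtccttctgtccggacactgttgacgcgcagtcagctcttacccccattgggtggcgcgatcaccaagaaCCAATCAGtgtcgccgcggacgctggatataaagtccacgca
H2-D1: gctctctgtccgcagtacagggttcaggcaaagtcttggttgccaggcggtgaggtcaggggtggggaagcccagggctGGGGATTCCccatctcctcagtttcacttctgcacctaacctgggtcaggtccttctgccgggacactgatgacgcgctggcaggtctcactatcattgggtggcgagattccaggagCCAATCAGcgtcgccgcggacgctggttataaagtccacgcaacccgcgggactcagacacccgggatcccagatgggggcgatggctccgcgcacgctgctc
The κB letters were found in the windows of these 2 genes and of no other among the 30, and in 0.296% of the 27025 symbols with a window. They lie 103 to 111 bases before the start in *H2-K1* and 163 to 171 bases before it in *H2-D1*. The Y box lies 8 to 15 bases after the annotated start in *H2-K1* and 46 to 53 bases before it in *H2-D1*. All these distances depend on where the start is annotated. The Y box letters occurred in 4 of 8 MHC I genes with a window (*H2-K1*, *H2-D1*, *Tap1* and *Psmb9*), in 2 of 4 MHC II genes and in 0 of 18 interferon-induced genes, beside 4.7% of all symbols. The ISRE core was present in 1 of the 8 MHC I windows, that of *B2m*, printed here as chr2:122147523-122147582 on the plus strand with the core in capitals.
B2m: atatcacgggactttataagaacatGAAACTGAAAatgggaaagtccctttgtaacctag
The core of *B2m* lies 130 to 139 bases before the start. Only exact letters were counted, so a window without a match can still hold a variant of an element. These matches are descriptions of letters and not of bound sites.

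The genes that supply and load peptides were also low in tumor 1 of mouse 1. *Tap1*, a subunit of the peptide transporter, had 1.52, 19.97 and 20.4 TPM in mouse 1 and 17.9, 16.6 and 19.2 TPM in mouse 2, and had the least spread of this list among the 5 tumors, at 1.23-fold. *Tap2*, the other subunit, had 5.61 TPM in tumor 1 of mouse 1 against 13.8 to 26.3 TPM elsewhere. *Tapbp*, which encodes tapasin, had 15.8 TPM there and 56.6 to 92.3 TPM in the other tumors. The levels of *Tap2* rest largely on transcripts that are not annotated as coding, which left 25.3% to 44.3% of its TPM to coding transcripts. *Nlrc5*, the co-activator of MHC I genes, was the lowest of the list in TPM. It stood at 0.107, 2.71 and 2.63 TPM in mouse 1 and at 4.58, 4.39 and 2.80 TPM in mouse 2, and the first of these values rests on 13 estimated counts. The median of the 5 tumors was 26.1 times the level of tumor 1 of mouse 1 for *Nlrc5*, 12.6 times for *Tap1* and 3.35 times for *Tap2*.

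The immunoproteasome subunits, which interferon γ induces and which replace 3 constitutive catalytic subunits, were far lower in tumor 1 of mouse 1, while in TPM their constitutive counterparts stood near or within the range of the other tumors. *Psmb8* had 4.71, 96.9 and 106 TPM in mouse 1 and 73.7, 93.1 and 103 TPM in mouse 2. *Psmb9* had 2.76, 37.1 and 38.2 TPM in mouse 1 and 34.8, 38.4 and 71.8 TPM in mouse 2. Tumor 1 of mouse 1 was far below the rest in both, and tumor 3 of mouse 2 was the highest for *Psmb9*. The third subunit gene, *Psmb10* on chromosome 8, differed less, with 26.5 TPM in tumor 1 of mouse 1 against 37.3 to 79.9 TPM in the others. The constitutive *Psmb5*, *Psmb6* and *Psmb7* had 107, 262 and 139 TPM in tumor 1 of mouse 1, against 122 to 178, 181 to 228 and 135 to 215 TPM in the other 5. On the TMM scale these genes were also lowest in that tumor, with a median log2 ratio to the other 5 of −1.23, against −5.51 for *Psmb8*. The share of each pair does not depend on this scaling. *Psmb8* made up 4.21% of the sum of *Psmb8* and *Psmb5* in that tumor and 38.1% ± 2.499 (SD, n = 5) in the others. *Psmb9* made up 1.04% of its pair with *Psmb6* there and 18.1% ± 5.46 (SD, n = 5) elsewhere, and *Psmb10* 16.03% of its pair with *Psmb7* there and 27.7% ± 3.86 (SD, n = 5) elsewhere. With all 6 tumors the shares were 32.5% ± 14.0, 15.3% ± 8.50 and 25.8% ± 5.89 (SD, n = 6). With coding transcripts alone the mean shares over 6 tumors were 24.5%, 15.7% and 13.7%, so that *Psmb10* moved most.

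**Figure D3:**
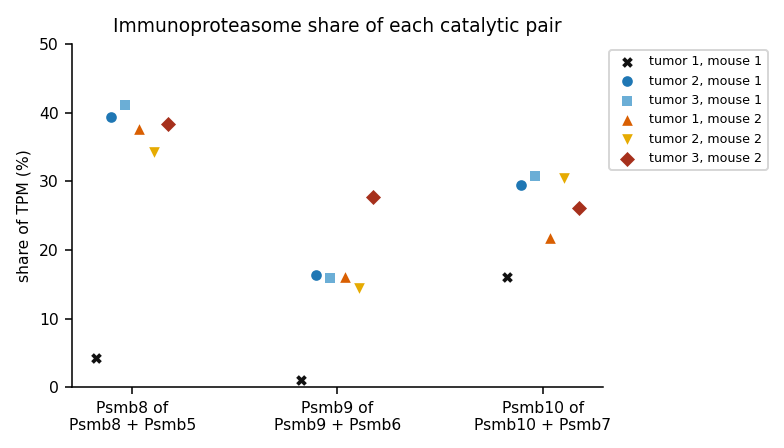
Share of each immunoproteasome subunit in the summed TPM of the subunit and its constitutive counterpart, in percent, with 1 point for each tumor. Tumor 1 of mouse 1 lies at 4.21%, 1.04% and 16.03%, below the other 5 tumors for each pair.

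Other genes of the MHC I pathway were split in tumor 1 of mouse 1 in TPM. Of 10 further class I genes, 4 were lowest and 5 highest in that tumor, beside 22.2% and 62.6% of all genes. *H2-Q10*, which encodes a class I molecule that the liver secretes, had 70.5 TPM there and 1439 to 1795 TPM in the other 5 tumors. *H2-T23*, whose product Qa-1 is a ligand of NK cell receptors, had 24.7 TPM there and 247 to 322 TPM elsewhere, and *H2-T22* had 17.9 TPM against 87.1 to 148 TPM. In contrast, *H2-Q7* stood at 122 TPM in that tumor against 19.7 to 64.7 TPM in the others, and *Mr1*, which presents vitamin B metabolites, at 46.2 TPM against 0.459 to 3.99 TPM. Of 7 genes of peptide supply and loading, 4 were lowest there. The chaperone genes *Calr*, *Pdia3* and *Canx* were the most abundant of them, and their levels in tumor 1 of mouse 1 were 289, 356 and 198 TPM, with *Pdia3* and *Canx* highest in this tumor in TPM. On the TMM scale *Pdia3* and *Canx* were no longer highest there, nor were *H2-Q4*, *H2-Q6*, *H2-Q7* and *H2-M3*, while *Mr1* was. *H2-Q4* and *H2-T24* were lowest in this tumor on that scale.

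MHC II genes divided the 6 tumors in another way, which crossed the line between the 2 mice. *Cd74*, the invariant chain that escorts MHC II, had 52.0, 451 and 485 TPM in mouse 1 and 99.2, 340.2 and 76.3 TPM in mouse 2. *H2-Aa*, the α chain of I-A on chromosome 17 from 34282744 to 34287823, had 21.4, 169.8 and 167 TPM in mouse 1 and 32.1, 145 and 27.3 TPM in mouse 2. Its partner *H2-Ab1*, the β chain, had 16.6, 143 and 139 TPM in mouse 1 and 26.8, 111 and 24.7 TPM in mouse 2. In each gene, tumors 2 and 3 of mouse 1 and tumor 2 of mouse 2 were high, and the other 3 tumors were low. *H2-Eb1*, the β chain of I-E, had 105 to 142 TPM in the 3 high tumors and 17.0 to 25.2 TPM in the 3 low ones, and was lowest in tumor 3 of mouse 2. C57BL/6 mice lack the α chain of I-E. *H2-DMa* and *H2-DMb1*, whose products exchange peptides on MHC II, had 14.9 to 20.2 TPM and 14.5 to 16.3 TPM in the high tumors, and 2.55 to 3.996 TPM and 1.36 to 3.56 TPM in the low ones. *Ciita* had 0.193, 0.950 and 1.13 TPM in mouse 1 and 0.315, 0.675 and 0.135 TPM in mouse 2, from 12 to 133 estimated counts. The mean without tumor 1 of mouse 1 was 290.2 ± 192 TPM for *Cd74* and 108 ± 72.3 TPM for *H2-Aa* (SD, n = 5), and with it 250.5 ± 198 and 93.7 ± 73.7 TPM (SD, n = 6).

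This split was described after the values were seen, and so it was counted over all genes. Among genes whose mean reached 1 TPM, 6 of 6 MHC II genes, 0 of 10 MHC I genes and 0 of 18 interferon-induced genes had each of tumors 2 and 3 of mouse 1 and tumor 2 of mouse 2 at least 2-fold above tumors 1 and 3 of mouse 2. Of all 12512 genes, 6.03% had it. The proportions within MHC II were steady while the levels were not. *H2-Aa* was 1.10 to 1.30 times *H2-Ab1* over the 6 tumors, and *Cd74* was 0.888 to 1.18 times the sum of *H2-Aa*, *H2-Ab1* and *H2-Eb1*. Of 10 other genes of the class II pathway, 9 were measured and the mean of 5 reached 1 TPM. *Ctss*, the protease cathepsin S that trims the invariant chain, had 18.9, 99.7 and 98.9 TPM in mouse 1 and 33.0, 97.2 and 22.96 TPM in mouse 2, in the same arrangement as MHC II. *Lgmn*, another endosomal protease, had 62.9, 81.5 and 84.3 TPM in mouse 1 and 38.3, 73.9 and 29.7 TPM in mouse 2. The genes of the RFX complex, which binds MHC II promoters and is present in most cells, were instead highest in tumor 1 of mouse 1 in TPM, with 18.5 TPM of *Rfx5*, 32.8 TPM of *Rfxap* and 9.93 TPM of *Rfxank*, and on the TMM scale this held for *Rfx5* and *Rfxap* but not for *Rfxank*.

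The summed macrophage markers placed the tumors in the same order, but not every marker was divided like MHC II. The 12 macrophage markers summed to 114, 877 and 881 TPM in mouse 1 and to 341, 743 and 235 TPM in mouse 2, and the 7 MHC II genes to 115, 930.1 and 967 TPM in mouse 1 and to 191, 731 and 153 TPM in mouse 2. The ratio of the second sum to the first was 1.01, 1.06 and 1.10 in mouse 1 and 0.559, 0.984 and 0.651 in mouse 2. MHC II thus differed more than the macrophage markers did among the tumors of mouse 2. Of the 12 markers, 10 reached a mean of 1 TPM, led by *Lyz2*, *C1qb* and *C1qa*, and the 2-fold split was found in 4 of these 10 (*C1qa*, *C1qb*, *C1qc* and *Lyz2*), while *Marco* and *Timd4* had means of 0.195 and 0.168 TPM and *Marco* was listed at 0 in tumor 1 of mouse 2. Markers of the other cell types that make MHC II are less abundant genes, and their sums do not measure how much RNA each cell type gave. The 9 dendritic cell markers, led by *Itgax*, *Batf3* and *Zbtb46*, summed to between 2.71 and 10.1 TPM, with a mean of 1 TPM reached by 2 of 9 and *Siglech* at 0 in tumor 1 of mouse 1 and tumor 3 of mouse 2. The 7 B cell markers, led by *Cd79b* and *Cd79a*, summed to between 1.30 and 6.07 TPM, with 1 of 7 at that mean and *Ms4a1*, *Fcmr* and *Pax5* at 0 in tumor 1 of mouse 1. The 3 markers of all leukocytes, *Laptm5*, *Coro1a* and *Ptprc*, summed to 13.6, 53.5 and 54.8 TPM in mouse 1 and 20.4, 33.6 and 14.4 TPM in mouse 2. The 8 stellate cell and fibroblast markers, led by *Dcn*, *Reln* and *Col3a1*, summed to 71.2 to 84.5 TPM in the 3 tumors with high MHC II and to 22.6 to 40.7 TPM in the other 3, and 4 of 6 with a mean of 1 TPM had the 2-fold split. The 8 endothelial markers, led by *Egfl7*, *Fcgr2b* and *Clec4g*, had sums of 28.8 to 115 TPM. The part of these cells in the MHC II levels was not tested.

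**Figure D4:**
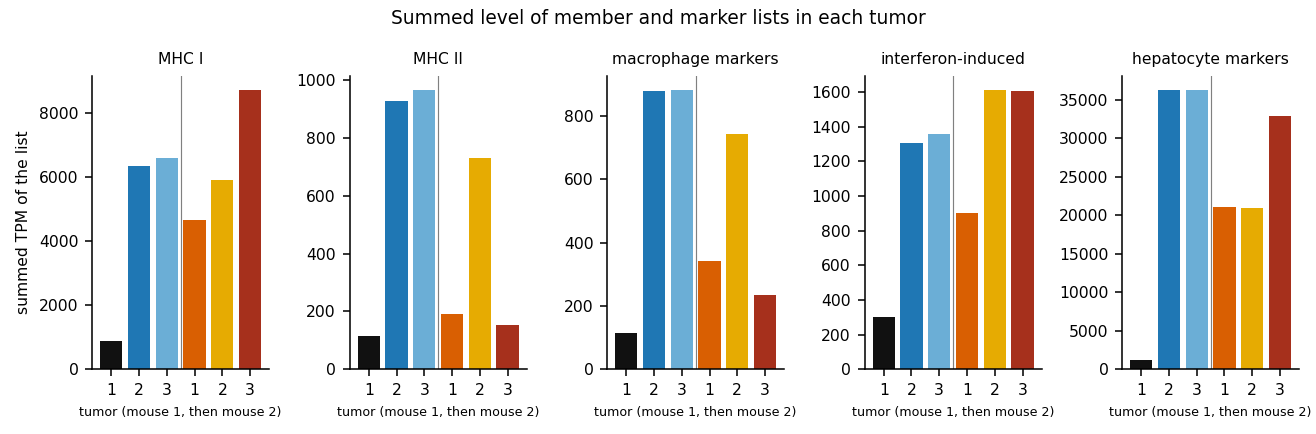
Summed TPM in each tumor of the MHC I, MHC II and interferon-induced genes and of the macrophage and hepatocyte markers, each panel on its own axis from 0. MHC II and the macrophage markers share the order of the tumors, with 153 to 191 TPM of MHC II in tumors 3 and 1 of mouse 2 and 731 TPM in tumor 2.

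Of the 4 MHC II genes with a promoter window, *H2-Aa* and *H2-Eb1* held the Y box. The stretches around it, chr17:34287842-34287899 on the minus strand and chr17:34305780-34305837 on the plus strand, are shown because this box is part of the module that MHC II genes share with MHC I genes, and it is in capitals.
H2-Aa: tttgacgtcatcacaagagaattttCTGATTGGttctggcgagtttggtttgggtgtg
H2-Eb1: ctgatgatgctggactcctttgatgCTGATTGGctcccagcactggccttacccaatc
The box lies 44 to 51 bases before the start in *H2-Aa* and 55 to 62 bases before it in *H2-Eb1*. None of the 4 windows held the ISRE core or the GAS.

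Interferon-induced genes included abundant ones, in the first place 2 membrane proteins that restrict viruses. *Ifitm3*, which blocks viral entry, had 185, 568 and 649 TPM in mouse 1 and 391, 709 and 698 TPM in mouse 2. *Bst2*, which encodes the virus-holding protein tetherin, had 43.9, 397 and 375 TPM in mouse 1 and 307, 512 and 630.3 TPM in mouse 2. Their means over the 5 tumors other than tumor 1 of mouse 1 were 603 ± 131 and 444 ± 128 TPM (SD, n = 5). The other 16 genes had means of 1.59 to 48.7 TPM over the 6 tumors.

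In TPM the antiviral effectors that respond to type I interferon were, except *Ifit2*, lowest in tumor 1 of mouse 1. Those given here were highest in tumor 2 of mouse 2 on that scale. *Isg15*, a ubiquitin-like modifier on chromosome 4 from 156199424 to 156200818, had 3.48, 59.1 and 55.5 TPM in mouse 1 and 32.8, 75.1 and 66.1 TPM in mouse 2. *Oas1a*, which senses double-stranded RNA and activates RNase L, had 0.771, 17.2 and 17.1 TPM in mouse 1 and 10.2, 32.9 and 12.7 TPM in mouse 2. *Ifit3*, of the family that binds foreign RNA, had 1.58, 17.7 and 16.8 TPM in mouse 1 and 10.8, 23.5 and 16.6 TPM in mouse 2. Tumor 2 of mouse 2 was 1.91 times the next highest tumor for *Oas1a*, 1.33 times for *Ifit3* and 1.14 times for *Isg15*. *Ifit1* had 11.4 TPM in tumor 2 of mouse 2, between 5.47 and 9.397 TPM in 4 tumors and 1.02 TPM in tumor 1 of mouse 1. *Rsad2*, which encodes viperin, had 10.9 TPM, between 3.68 and 6.88 TPM and 1.01 TPM in the same order. *Ifit2* was different, with 6.49, 3.996 and 4.88 TPM in mouse 1 and 2.87, 11.2 and 4.27 TPM in mouse 2, so that in TPM tumor 1 of mouse 1 lay above 4 others. Among the 5 tumors without that one, tumor 2 of mouse 2 was the highest in TPM for 10 of 18 interferon-induced genes. It was highest for 0 of 10 MHC I and 0 of 6 MHC II genes, beside 15.8% of all 11321 genes whose mean reached 1 TPM. On the TMM scale *Isg15*, *Ifit1*, *Ifitm3* and *Stat2* were instead highest in tumor 3 of mouse 2. *Irgm1*, *H2-Aa*, *H2-Ab1* and *H2-DMb1* were then highest in tumor 2 of mouse 2. This tumor was singled out after its values were seen, and the lead was small for *Ifitm3*, *Irf7* and *Stat2*, at 1.02, 1.07 and 1.09 times the next tumor. It was at least 1.5 times the median of the other 4 tumors for 4 of the 18 genes, beside 7.33% of all 11321 genes. Of 41 other interferon-induced genes, 13 were highest in this tumor, 11 in tumor 3 and 10 in tumor 2 of mouse 1. Of all 11321 genes, 1788, 4278 and 3571 were highest in these tumors, in the same order. The dendritic cell markers also had their highest sum in tumor 2 of mouse 2, at 10.1 TPM against 2.71 to 7.56 TPM in the other 5, and their part was not tested.

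The promoters of these effectors are shown for the ISRE, the element to which STAT and IRF factors bind after type I interferon. Its core was found in 13 of 18 interferon-induced genes, beside 3.99% of all symbols. The stretches shown are chr4:156200850-156200921 (minus) for *Isg15*, chr5:120907505-120907648 (minus) for *Oas1a*, chr19:34583348-34583441 (plus) for *Ifit3* and chr12:26456538-26456597 (minus) for *Rsad2*, with the ISRE core, or its complement on the other strand, and the GAS in capitals.
Isg15: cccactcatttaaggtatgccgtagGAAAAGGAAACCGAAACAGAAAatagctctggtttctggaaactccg
Oas1a: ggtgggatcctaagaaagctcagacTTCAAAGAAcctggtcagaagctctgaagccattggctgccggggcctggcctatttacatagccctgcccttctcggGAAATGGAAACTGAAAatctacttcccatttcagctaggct
Ifit3: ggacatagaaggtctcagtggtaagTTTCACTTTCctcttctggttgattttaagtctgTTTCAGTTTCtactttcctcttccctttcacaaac
Rsad2: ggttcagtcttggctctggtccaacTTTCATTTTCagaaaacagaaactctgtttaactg
In *Isg15* 3 cores overlap each other from 57 to 78 bases before the start, and in *Oas1a* 2 overlap from 5 to 20 bases before it. The first capitals of *Oas1a* are a GAS, 90 to 98 bases before the start. The GAS was found in 7 of the 18 genes, beside 9.55% of all symbols, and it shared bases with an ISRE core in *Bst2* and *Ifitm3*. The genes without the exact letters of the ISRE core in their window were *Irf1*, *Irf7*, *Irf9*, *Ifit2* and *Cd274*.

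The factors that carry the interferon signal were divided. *Irf7*, which drives interferon genes and is itself induced, had 3.34, 67.1 and 64.5 TPM in mouse 1 and 28.8, 72.2 and 42.0 TPM in mouse 2. *Stat2* and *Irf9*, subunits of the ISGF3 complex that binds the ISRE, were even across all 6 tumors in TPM. *Stat2* had 7.98, 10.5 and 10.3 TPM in mouse 1 and 10.3, 11.4 and 9.75 TPM in mouse 2, and *Irf9* ranged from 8.20 to 11.5 TPM. *Irf1*, an early target of interferon γ, had 9.54, 27.7 and 24.1 TPM in mouse 1 and 15.4, 15.5 and 13.9 TPM in mouse 2. The ratio of highest to lowest tumor was 1.40-fold for *Irf9*, 1.43-fold for *Stat2* and 2.91-fold for *Irf1*, against 21.6-fold for *Irf7*. On the TMM scale tumor 1 of mouse 1 was below the median of the other 5 for each of these genes, with log2 ratios of −1.05 for *Irf9*, −1.75 for *Stat2* and −5.09 for *Irf7*.

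The GTPases that interferon γ induces against intracellular pathogens were low in tumor 1 of mouse 1 with 1 exception. *Igtp* had 9.80, 43.7 and 44.1 TPM in mouse 1 and 32.5, 53.3 and 29.9 TPM in mouse 2. *Irgm1* had 5.22 TPM in tumor 1 of mouse 1 against 24.6 to 40.0 TPM in the others, *Gbp2* 0.873 TPM against 6.32 to 10.8 TPM, and *Gbp3* 2.56 TPM against 6.51 to 15.9 TPM. *Gbp7*, with 6.83, 8.69 and 9.08 TPM in mouse 1 and 4.37, 4.47 and 5.75 TPM in mouse 2, was within the range of the rest in TPM. These families hold near-identical copies, so their shares of the reads are uncertain. *Cd274*, which encodes the checkpoint ligand PD-L1, was low throughout, with 0.421, 2.37 and 2.69 TPM in mouse 1 and 1.41, 1.87 and 0.755 TPM in mouse 2.

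Interferon genes themselves were at or near 0. Of 10 ligand genes, 6 had no estimated count in any tumor, which allows up to 3 counts in a library. *Ifng*, the gene of interferon γ, had 0.367 TPM in tumor 2 of mouse 2, and in mouse 1 the values of tumors 2 and 3 were 0.122 and 0.149 TPM. These values rest on at most 3 estimated counts, and the gene was listed at 0 in the other 3 tumors. *Ifnk* and *Ifne* rested on at most 5 estimated counts. The T and NK cell markers, led by *Nkg7*, *Gzma* and *Trac*, summed to between 0.629 and 12.8 TPM, with a mean of 1 TPM reached by 1 of 11 and *Cd3d*, *Cd3e*, *Cd8a*, *Cd8b1* and *Ncr1* at 0 in tumor 1 of mouse 1. Receptor genes were present. *Ifnar2*, a chain of the type I receptor, had 20.2 TPM in tumor 1 of mouse 1 against 58.4 to 92.8 TPM in the others, while its partner *Ifnar1* had 33.3 TPM there and 7.01 to 16.9 TPM elsewhere. *Ifngr1* and *Jak1* had 33.1 and 21.3 TPM there, within the 14.9 to 43.1 and 14.9 to 32.2 TPM of the others. On the TMM scale *Ifngr1* and *Jak1* were lowest and *Ifnar1* was still highest in tumor 1 of mouse 1. *Ifnlr1*, of the type III receptor, did not exceed 0.0407 TPM.

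Sensors, brakes and further target genes repeated the division. Of 11 nucleic acid sensing genes whose mean reached 1 TPM, 7 were lowest and 3 highest in tumor 1 of mouse 1. Of all genes at that mean, 22.2% were lowest and 62.6% highest there in TPM. *Zbp1*, a sensor of Z-form nucleic acids, had 2.11 TPM there and 38.9 to 57.8 TPM in the others, whereas *Sting1*, the adapter of the cGAS pathway, had 54.7 TPM there and 0.614 to 3.21 TPM in the others. *Mavs* and *Trim25*, of the RIG-I pathway, had 13.8 and 10.6 TPM in that tumor against 26.6 to 41.1 and 19.9 to 37.1 TPM. Among the brakes, *Usp18*, which removes ISG15 from proteins and blocks the type I receptor, had 12.4 TPM there and 21.9 to 41.4 TPM elsewhere, and *Irf2* and *Ptpn2* had 12.8 and 28.9 TPM there against 11.2 to 20.1 and 8.77 to 11.5 TPM. Of 39 other interferon-induced genes with that mean, 30 were lowest and 5 highest in tumor 1 of mouse 1, with a median log2 ratio to the other 5 of −2.31. *Ly6e* led them with 66.1 TPM there and 812 to 1201 TPM in the others, and *Ifi27* had 85.6 TPM against 379.7 to 647 TPM. The *Ifitm* genes, which lie side by side, did not move together. *Ifitm3* was lowest in tumor 1 of mouse 1, while *Ifitm2* had 1304 TPM there and 320.4 to 409.6 TPM elsewhere, and *Ifitm1* had 753 TPM there and 2.39 to 22.7 TPM elsewhere. *Ifitm1*, *Ifitm2* and *Sting1* were highest in that tumor on the TMM scale as well.

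Mouse 2 was compared with mouse 1 to ask whether tumors of one animal shared a level of these genes. With edgeR's quasi-likelihood test on rounded counts and Benjamini-Hochberg adjustment over 13259 genes, 0 of the 35 genes passed an adjusted p of 0.05 with 6 tumors, and 0 of the 35 had an unadjusted p under 0.05. Of all genes tested, 0.0% were higher and 0.0% lower in mouse 2, with 1448 at an unadjusted p under 0.05. The lowest adjusted p among the 35 was 0.552. Without tumor 1 of mouse 1, 0 of the 35 genes passed over 13365 genes, where 0.419% of all genes were higher and 0.838% lower in mouse 2. Here 2 of the 35 genes had an unadjusted p under 0.05 by edgeR, beside 2675 of all 13365 genes, so these 2 do not stand out. *Ifit1* had a log2 fold change, mouse 2 over mouse 1, of 0.93 ± 0.31 (SE) with an adjusted p of 0.185 by edgeR, and *Stat2* one of 0.32 ± 0.13 with an adjusted p of 0.238 by edgeR. DESeq2 and limma-voom also called 0 of the 35 with and without that tumor, and the lowest adjusted p of these genes over the alternatives lay between 0.0773 and 0.903.

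The sign differed between the lists, but within the spread of the tumors. The median log2 fold change, mouse 2 over mouse 1, was 0.90 for MHC I, −0.35 for MHC II and 0.84 for interferon-induced genes with 6 tumors, and 0.35, −0.87 and 0.43 without tumor 1 of mouse 1, beside −0.05 and 0.01 for all genes tested. The MHC II median of −0.35 was −0.00 with tumor number as a block and 0.00 when tumor 2 of mouse 1 was left out. The low value of tumor 1 of mouse 1 enters the mean of mouse 1 for nearly all of these genes, and leaving it out moved the MHC I median by more than any other tumor did. The largest fold changes without it were those of *Psmb9* (1.00 ± 0.43), *Cd74* (−1.01 ± 0.55) and *H2-Eb1* (−0.98 ± 0.60, log2 ± SE). MHC II in mouse 2 came from 1 high and 2 low tumors, and its standard errors were 0.54 to 0.65, against 0.13 to 0.51 for the interferon-induced genes. In the other lists of the pathway, edgeR and limma-voom called 0 genes in either comparison. DESeq2 called 1 constitutive proteasome gene higher in mouse 2 with 6 tumors. Without tumor 1 of mouse 1 DESeq2 called 1 gene higher in each of the other class I, loading and constitutive proteasome lists, 1 sensing gene lower, and 1 higher and 1 lower among the other interferon-induced genes. With 2 animals, these p-values rest on the spread of tumors within an animal and do not speak for mice in general.

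**Figure D5:**
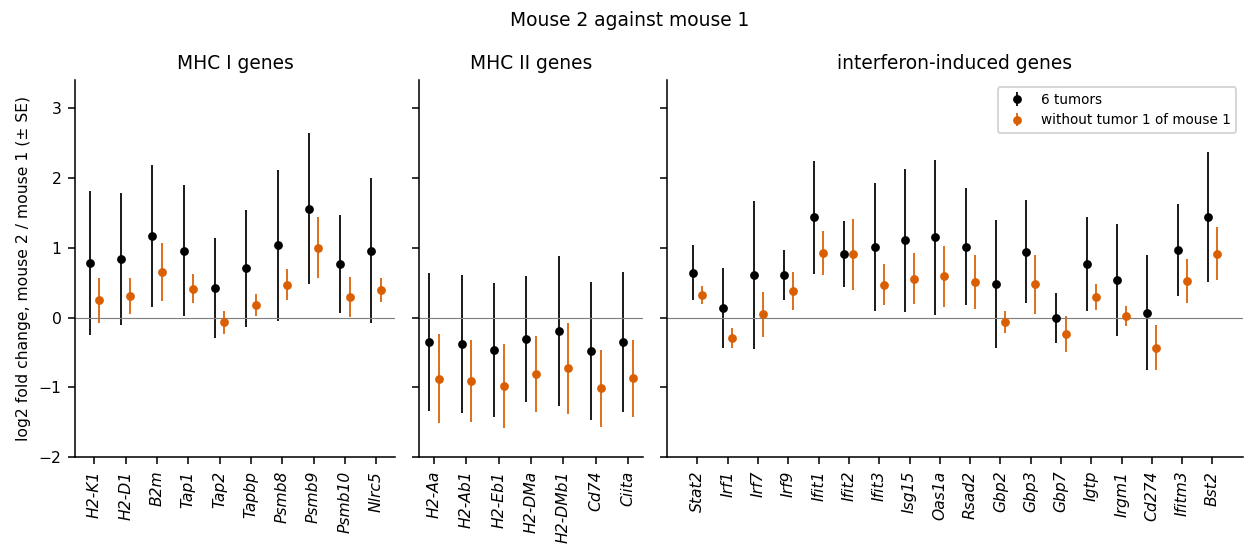
Log2 fold change of mouse 2 over mouse 1 by edgeR for each of the 35 genes, with the SE as bars, for 6 tumors in black and without tumor 1 of mouse 1 in orange. The medians with 6 tumors are 0.90 for MHC I, −0.35 for MHC II and 0.84 for interferon-induced genes, and none of the genes passed an adjusted p of 0.05.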

How the data were processed

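According to the methods of the study, RNAseq libraries were made from poly A enriched mRNA. The series text calls the material total RNA. The authors deposited, per tumor, a table of Ensembl mouse transcripts with estimated counts and TPM values. The tables have the layout of Salmon. GRCm38, BWA and Picard appear in the submitters' processing notes. Which transcript release was indexed is not given in the sources. Such TPM values depend on how reads are divided among transcripts, and retained-intron transcripts are included in the sums.

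Identifiers were matched to GENCODE vM39 for names only, which placed 114813 of 116546 transcripts, and values were summed per gene symbol. Left out were 1733 unmatched transcripts with 0.373% to 0.68% of the counts. Positions and promoters come from RefSeq on GRCm38.p6. Rounded estimated counts were tested with edgeR 4.0.16 (TMM, filterByExpr, quasi-likelihood, two-sided), after a test on simulated data, with DESeq2 1.42.0 and limma 3.58.1 as alternatives, in R 4.3.3. Means and SDs of levels are of untransformed TPM. To compare levels under the alternatives, each list was averaged as log2(TPM + 1). Sums, ratios and plots were made in Python 3.11.15 with pandas 2.3.3, numpy 2.4.6 and matplotlib 3.10.9. Depth limits the low genes, since the 35 genes had 12 to 70253 estimated counts per tumor.

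The 35 genes, the pathway and marker lists and their order were chosen with earlier results of these data known. All 35 are named, as are the 3 most abundant genes of each further list, any gene past the test and the defining markers at 0, except for 1 marker that is not reported here. Other genes were named after their values were seen. The tool, filter, scaling, pseudocount and transcript class were varied, each tumor was left out in turn, and tumor number was tried as a block. The average of tumors 2 and 3 of mouse 1 and the settings for the 2-fold split and for tumor 2 of mouse 2 were added after the data were seen. Non-tumor liver, other mouse models, exome and single-cell data are not analysed here.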

Additional observations from a re-analysis of the deposited data

Results flagged for a closer look

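Tumor 1 of mouse 1 stood apart from the other 5 tumors for 16 of the 35 genes, beside 38.8% of all genes with any tumor apart, and it was the low one in each. The measure was Dixon's ratio on log2(TPM + 1), the gap between the extreme tumor and its nearest neighbor divided by the whole range, set against the critical value for 6 tumors. In the MHC I list the ratio was above it for *Tap1* (0.91), *Psmb8* (0.876), *H2-K1* (0.79), *H2-D1* (0.779), *Psmb9* (0.76), *Nlrc5* (0.735), *Tapbp* (0.718) and *B2m* (0.7). Among the interferon-induced genes it was above it for *Irgm1* (0.75), *Gbp2* (0.74), *Bst2* (0.729), *Isg15* (0.713), *Irf7* (0.683), *Ifit3* (0.676), *Igtp* (0.651) and *Ifit1* (0.641). In the MHC II list it was above it for 0 of 7 genes, as 2 further tumors were nearly as low. Chance marks about 1 in 20 sets of values, but in these libraries 38.8% of the 12512 genes whose mean reached 1 TPM had a tumor that stood apart. That background counts any tumor, high or low, so it is not matched to low values in tumor 1 of mouse 1. The 16 of 35 lies near it and is not read as particular to these genes.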

How the results depend on the processing

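The levels, orders and shares stayed within their spread under the alternatives except where given here. The number of the 35 genes highest in tumor 2 of mouse 2 was 10 in TPM and 10 on the TMM scale, but the genes were not the same. The number of the 35 genes called between the mice was 0 under all 17 alternatives, those without tumor 1 of mouse 1 among them, but with 6 tumors edgeR called 0 of all genes, so this count of 0 is no sign of stability. Tumor number only names a tumor, as deviations of same-numbered tumors correlated at 0.02, −0.04 and 0.05, and with it as a replicate block 0 of 35 genes were called and the medians were 1.52 for MHC I, −0.00 for MHC II and 1.17 for interferon-induced genes. When single tumors were left out, the median log2 fold change of MHC I lay between 0.35 and 1.29, that of MHC II between −1.26 and 0.00, and that of interferon-induced genes between 0.43 and 1.06. Library size in place of TMM moved the median of all genes to −0.55 with 6 tumors and −0.24 without tumor 1 of mouse 1. The count of genes with a 4-fold range was 6 to 25 when single tumors were left out, against 25 with all, and the 6 belongs to the set without tumor 1 of mouse 1. Coding transcripts alone gave a mean share of *Psmb10* of 13.7% instead of 25.8%. Over all genes, DESeq2 called 133 higher and 69 lower in mouse 2 where edgeR called 0 of 13259 (1448 with an unadjusted p under 0.05) and limma-voom 0, and without tumor 1 of mouse 1 DESeq2 called 781 and 587, limma-voom 177 and 301 and edgeR 56 and 112. With tumors 2 and 3 of mouse 1 averaged, edgeR called 1 higher and 0 lower.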
